A study of Mus musculus with 2 samples.

Results

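The oligodendrocyte lineage was followed through 43 protein-coding genes that mark its stages, from proliferating precursors to myelin-forming cells, out of 55536 annotated genes in the data. The genes were chosen by name as known markers of a lineage stage, with Mbp left out of the list, and were placed in 7 groups by stage and role. Earlier results of these data were known when the genes and groups were chosen. The tissue was left cerebral cortex, taken at 14 days of age from female B6CASTF1/J mice, which are first-generation offspring of C57BL/6J and CAST/EiJ, and its total RNA was sequenced after ribosomal RNA had been depleted. The data hold 1 group of 2 libraries, replicate 1 and replicate 2, each made from 300 ng of RNA with ERCC spike-in RNA added, and there is no second genotype, treatment or age. Both library descriptions mention 3 females, as does the label of the tissue behind replicate 1, whereas the tissue behind replicate 2 is labelled with 1 numbered female, so how many mice a library holds is not known. Both libraries carry the same donor entry in the labels.

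Oligodendrocytes arise from precursors that carry the receptor for platelet-derived growth factor. A precursor leaves the cell cycle, passes through a short committed stage, and then switches on a large set of genes for the proteins and lipids of myelin, the membrane sheath wrapped around axons. The lineage factors Olig1, Olig2, Sox10 and Nkx2-2 act from the precursor stage on, and the membrane-anchored factor Myrf, which Sox10 activates, drives the genes of the myelin sheath. In the mouse cortex the second postnatal week falls early in myelination, when precursors, committed cells and myelinating cells are all present.

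The gene tables held 33.4 × 1e6 counts in replicate 1 and 32.0 × 1e6 in replicate 2, and the spike-ins took 0.359% and 0.361% of the totals. The 43 genes received 86924 counts in replicate 1 and 59195 in replicate 2, which is 0.261% and 0.185% of the gene counts. Cortical excitatory neuron markers were present, with a median of 53.2 TPM in replicate 1 and 50.3 TPM in replicate 2. The Schwann cell markers, which would mark cells of peripheral nerve, summed to 16.5 and 15.7 TPM, most of it from Pmp22 (12.7 and 11.7 TPM) and Egr2 (3.25 and 3.34 TPM). In the same list Prx (0.40 and 0.27 TPM) and Ncmap (0.25 and 0.43 TPM) were below 1 TPM, and Foxd3 received 0 counts in both libraries, where the limit that a count of 0 allows is 3 counts or 0.0918 CPM. All 43 lineage genes reached 1 TPM in both libraries, and all passed the filter of 10 counts in at least 1 library for the comparison of the libraries.

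Levels are given in TPM, transcripts per 1e6, which corrects for transcript length and is the scale on which genes can be set side by side. Medians over the genes of a stage were highest for the myelin membrane and cytoskeleton genes (34.9 ± 13.1 TPM, SD of the 2 library medians, n = 2) and for the metabolic, secreted and receptor genes of mature cells (34.9 ± 4.91 TPM). The lineage transcription factors followed at 16.8 ± 0.682 TPM, the precursor genes at 11.6 ± 0.269 TPM and the enzymes of myelin lipids and acetate at 10.7 ± 2.40 TPM. The committed and differentiating cell genes stood at 7.93 ± 1.28 TPM and the myelination transcription factors at 6.2 ± 1.83 TPM. Neighbours in this order did not all separate beyond their spread: the library medians overlapped between the first 2 groups, between the precursor genes and the lipid enzymes, and between the last 2 groups.

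The libraries were compared gene by gene on counts. The ratio is log2 of (CPM + 0.5) in replicate 2 over replicate 1, where CPM is counts per 1e6 after TMM scaling, and its error is a counting SE. A gene was called when the exact binomial test with Benjamini-Hochberg adjustment over all 18887 genes tested gave an adjusted p under 0.05. That test weighs counting error alone, so it compares these libraries and says nothing about mice in general. Of the 43 genes, 32 were called lower in replicate 2 and 0 higher, while 11.4% of all genes tested were called lower and 8.88% higher. These shares were not matched on expression, and the test calls small ratios of abundant genes, such as Gpr17 at 1.07-fold lower. Lower genes made up 56.2% of the calls over all genes, and 29.5% or 32.4% when the libraries were scaled by total counts or by spike-ins, under which 30 of the 43 genes were called lower. The edgeR exact test with an assumed dispersion of 0.01, which allows for a spread between libraries, called 12 lower (0.434% of all genes tested) and 0 higher (0.529%). With a difference of at least 1.5-fold required as well as the binomial call, 16 were lower, against 1.05% of all genes tested, and 0 were higher, against 2.2%. The median ratio of the 43 genes was -0.41 on the log2 scale, against 0.00 for all genes tested. In a bulk tissue, fewer cells of a type and less RNA per cell cannot be told apart.

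**Figure D1:**
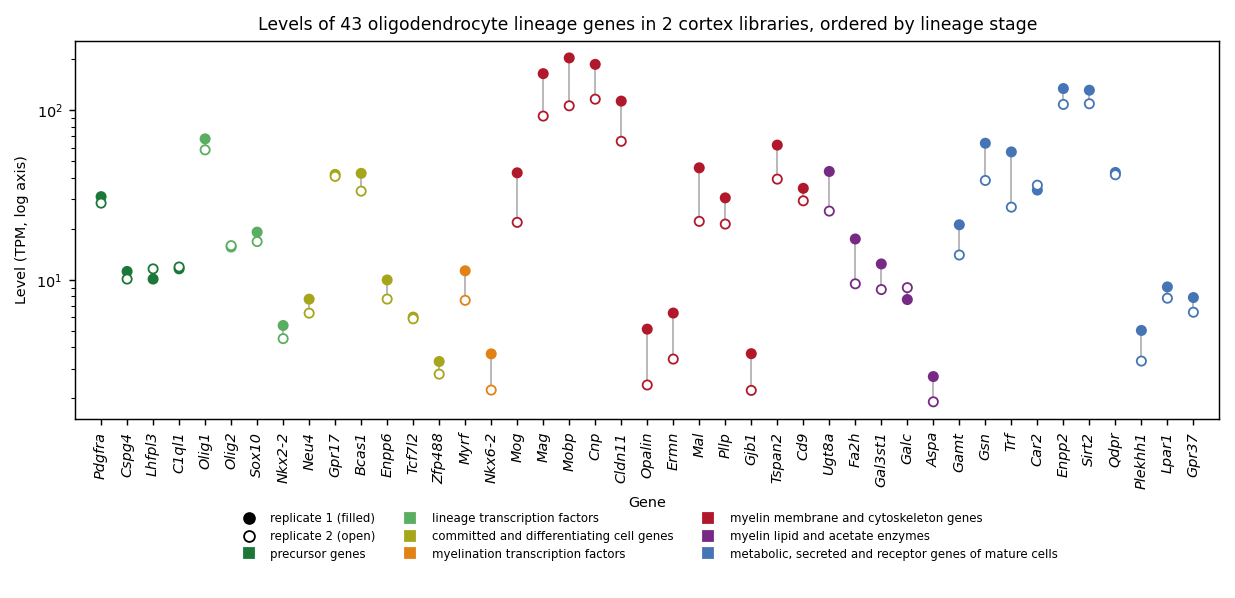
Level of each of the 43 genes in TPM (log axis), replicate 1 as filled and replicate 2 as open circles joined by a line, ordered by lineage stage and coloured by it. The circles nearly coincide for precursor genes such as C1ql1 (11.6 and 11.9 TPM) and are far apart for myelin genes such as Mobp (203 and 106 TPM).

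The difference between the libraries was small among the precursor genes and large among the genes of the myelin sheath. The median log2 ratio was -0.09 for the precursor genes, -0.20 for the lineage transcription factors and -0.22 for the committed and differentiating cell genes. It was -0.63 for the myelination transcription factors, -0.84 for the myelin membrane and cytoskeleton genes, -0.55 for the lipid and acetate enzymes and -0.38 for the metabolic, secreted and receptor genes. The 8 precursor genes and lineage factors lay between -0.28 and 0.09, and the 12 myelin membrane genes between -1.10 and -0.30. These ranges did not overlap, although Olig1 (-0.28) and Cd9 (-0.30) at their edges differed by less than a counting SE. Other groups overlapped both ranges. The committed and differentiating cell genes ran from -0.58 to -0.10, the lipid and acetate enzymes from -0.93 to 0.15 and the metabolic, secreted and receptor genes from -1.13 to -0.06. None of the 14 genes of the first 3 groups differed by 1.5-fold, compared with 10 of the 12 myelin membrane genes, though Enpp6 came close at 1.49-fold and passed with trends on length, GC content and mean expression removed (log2 ratio -0.60). The stages were set by the choice of genes, made with earlier results of these data known, so these medians describe the libraries and carry no test.

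**Figure D2:**
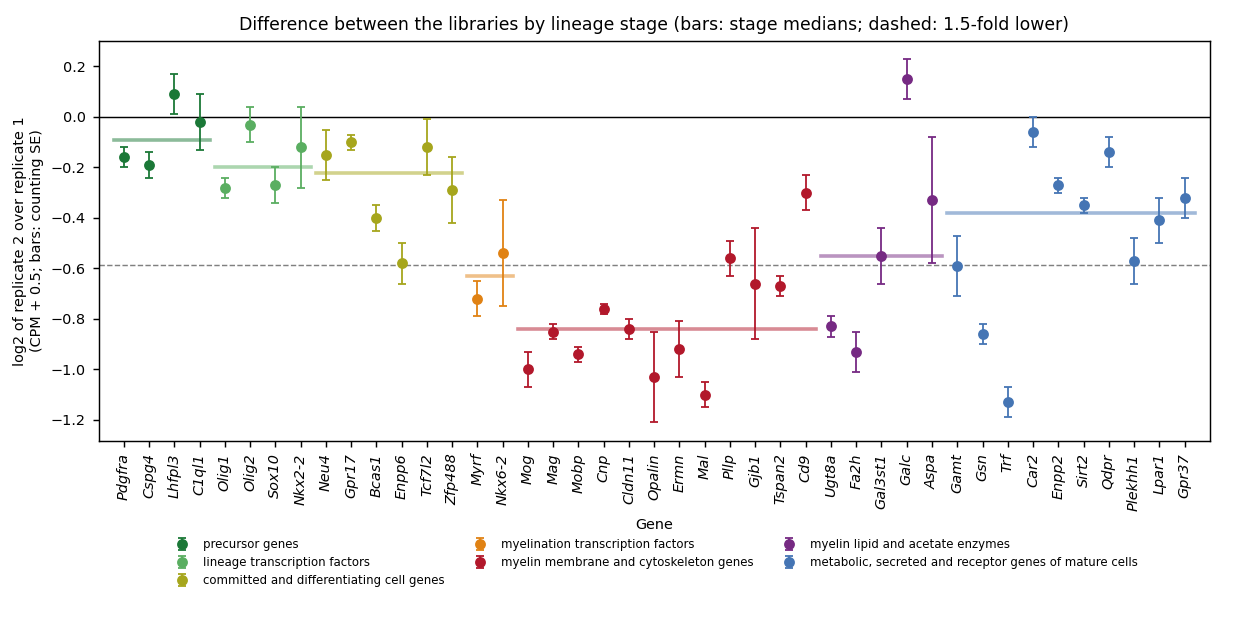
Log2 ratio of replicate 2 over replicate 1 for each gene (points, with bars of 1 counting SE), ordered by lineage stage, with stage medians as thick lines and a dashed line at 1.5-fold lower. The medians step down from -0.09 in precursor genes to -0.84 in myelin membrane genes, and Lhfpl3 and Galc lie above 0, while C1ql1 and Olig2 lie within 0.03 of it and change sign under other scalings.

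Among the precursor genes, Pdgfra and Cspg4 were slightly lower in replicate 2 and the other 2 were not called. Pdgfra, the receptor for platelet-derived growth factor that keeps precursors dividing (chromosome 5, 75152292 to 75198215, mm10), had a level of 30.9 TPM in replicate 1 against 28.3 TPM in replicate 2, a log2 ratio of -0.16 ± 0.04 (exact binomial adjusted p = 0.000113). Cspg4, the NG2 proteoglycan of precursors and also of pericytes, was at 11.2 and 10.1 TPM, a log2 ratio of -0.19 ± 0.05 (exact binomial adjusted p = 0.00464). This call was lost when the libraries were scaled by total counts (-0.13) or by spike-ins (-0.14). Lhfpl3, a tetraspan membrane protein used as a precursor marker, was at 10.1 and 11.6 TPM (log2 ratio 0.09 ± 0.08, exact binomial adjusted p = 0.47). C1ql1, a secreted C1q-like protein, was at 11.6 and 11.9 TPM (log2 ratio -0.02 ± 0.11, exact binomial adjusted p = 0.939), and its ratio was 0.03 under scaling by total counts or spike-ins. The edgeR exact test with the assumed dispersion called none of the 4.

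The lineage factors gave 2 calls of 4. Olig1, a basic helix-loop-helix factor, was the most abundant of them, with 67.7 TPM in replicate 1 against 58.3 TPM in replicate 2, a log2 ratio of -0.28 ± 0.04 (exact binomial adjusted p = 5.21e-11). Its neighbour on chromosome 16, Olig2, which specifies the lineage, was at 15.6 and 15.9 TPM with a log2 ratio of -0.03 ± 0.07 (exact binomial adjusted p = 0.838), and this small ratio turned to 0.03 under scaling by total counts and to 0.02 under spike-in scaling. On the log2 scale the ratio of Olig1 lay below that of Olig2 by 0.25, with a counting SE of 0.08. These were the largest and the smallest ratio of the 4, so this SE is no test. Sox10, the factor that activates Myrf and many myelin genes, was at 19.1 and 16.8 TPM, a log2 ratio of -0.27 ± 0.07 (exact binomial adjusted p = 0.000759). Nkx2-2, a homeodomain factor that helps to start differentiation, was low at 5.38 and 4.5 TPM, with 165 and 150 counts, and was not called (log2 ratio -0.12 ± 0.16, exact binomial adjusted p = 0.659). The edgeR exact test called none of these 4 either.

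The committed and differentiating cell genes were not uniform. Gpr17, a receptor carried by committed precursors and lost before myelination (chromosome 18), had a level of 41.8 TPM in replicate 1 against 40.7 TPM in replicate 2. Its log2 ratio of -0.10 ± 0.03 was called (exact binomial adjusted p = 0.0086) but lost the call under scaling by total counts (-0.04) and spike-ins (-0.05). Bcas1, which marks cells that begin to myelinate, was at 42.4 and 33.3 TPM, a log2 ratio of -0.40 ± 0.05 (exact binomial adjusted p = 5.71e-15). Enpp6, a choline phosphodiesterase of newly formed oligodendrocytes, was at 9.98 and 7.70 TPM, a log2 ratio of -0.58 ± 0.08 (exact binomial adjusted p = 1.1e-12).

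Of this stage, Bcas1 and Enpp6 differed more between the libraries than Gpr17 did. The edgeR exact test with the assumed dispersion called none of its 6 genes, so this contrast rests on counting error alone. The log2 ratio of Bcas1 lay below that of Gpr17 by 0.30 (counting SE 0.06) and that of Enpp6 by 0.48 (counting SE 0.08). Gpr17 had the smallest and Enpp6 the largest ratio of this stage, so these SEs are no test. The other 3 genes were not called by the exact binomial test. Neu4, a sialidase, was at 7.69 and 6.36 TPM (log2 ratio -0.15 ± 0.10, exact binomial adjusted p = 0.323). Tcf7l2, a transcription factor of the Wnt pathway, was at 6.03 and 5.89 TPM (log2 ratio -0.12 ± 0.11, exact binomial adjusted p = 0.507). Zfp488, a zinc-finger factor that works with Olig2, was at 3.30 and 2.78 TPM (log2 ratio -0.29 ± 0.13, exact binomial adjusted p = 0.0636). In the second transcript table the TPM of Enpp6 was 14.1 and 16.7, against the direction of its counts, where 10.2% and 39.8% of it were assigned to the short retained-intron transcript Enpp6-206, which received 0% in the first table.

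Both myelination factors were called lower in replicate 2 by the exact binomial test, and neither by the edgeR exact test. Myrf, the membrane-anchored factor that is cleaved to enter the nucleus and switch on myelin genes (chromosome 19, 10208272 to 10240748), had a level of 11.3 TPM in replicate 1 against 7.57 TPM in replicate 2. That was 1.64-fold lower in normalised counts, a log2 ratio of -0.72 ± 0.07 (exact binomial adjusted p = 1.56e-26), and the edgeR exact test with the assumed dispersion gave an adjusted p of 0.0695. Nkx6-2, a homeodomain factor of myelinating cells, had only 124 and 80 counts, at 3.66 and 2.24 TPM (log2 ratio -0.54 ± 0.21, exact binomial adjusted p = 0.0163, edgeR adjusted p = 0.787). Of its exonic bases 12.9% lie opposite the gene Inpp5a, which had 1271 and 1210 counts. Myrf lay below Sox10 in log2 ratio by 0.44 (counting SE 0.10). Myrf over Olig2 on the TPM scale was 0.726 in replicate 1 and 0.475 in replicate 2.

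All 12 myelin membrane and cytoskeleton genes were called lower in replicate 2, and 8 of them also in the edgeR exact test. Mobp, an abundant small basic protein of the cytoplasmic face of the myelin membrane (chromosome 9, 120149707 to 120181484), had the highest level of the 12 in replicate 1 at 203 TPM, and stood at 106 TPM in replicate 2 (log2 ratio -0.94 ± 0.03, exact binomial adjusted p = 3.85e-268, edgeR adjusted p = 0.00152). Cnp, a phosphodiesterase that keeps cytoplasmic channels open in myelin, was at 186 and 116 TPM (log2 ratio -0.76 ± 0.02, edgeR adjusted p = 0.0272). Mag, an adhesion protein of the membrane next to the axon, was at 164 and 92.2 TPM (log2 ratio -0.85 ± 0.03, edgeR adjusted p = 0.00767). Cldn11, the claudin that seals myelin layers, was at 113 and 65.5 TPM (log2 ratio -0.84 ± 0.04, edgeR adjusted p = 0.00816). These 4 were the most abundant of the group in both libraries, and each was 1.70-fold to 1.91-fold lower in replicate 2. Exact binomial adjusted p-values of the 12 ran from 3.85e-268 for Mobp to 0.00337 for Gjb1.

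The 3 largest ratios of the group belonged to the less abundant Mal, Opalin and Mog. Mal, a raft protein that helps to carry myelin proteins to the membrane (chromosome 2, 127633226 to 127656695), had a level of 45.7 TPM in replicate 1 against 22.1 TPM in replicate 2, 2.14-fold lower in normalised counts (log2 ratio -1.10 ± 0.05, exact binomial adjusted p = 2.57e-114, edgeR adjusted p = 7.25e-05). Opalin, a transmembrane protein of mature oligodendrocytes, was at 5.12 and 2.40 TPM with 216 and 97 counts (log2 ratio -1.03 ± 0.18, edgeR adjusted p = 0.00424). Mog, a glycoprotein of the outermost myelin surface (chromosome 17, 37010743 to 37023398), was at 42.7 and 21.8 TPM (log2 ratio -1.0 ± 0.07, edgeR adjusted p = 0.000745). Ermn, a cytoskeletal protein of late oligodendrocytes, was at 6.37 and 3.41 TPM (log2 ratio -0.92 ± 0.11, edgeR adjusted p = 0.00726). Mal lay below the precursor gene Pdgfra in log2 ratio by 0.94 (counting SE 0.06), and Mog by 0.84 (counting SE 0.08). Mal and Mog are among the largest ratios of the group, so these SEs are no test.

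The other 4 genes of the myelin membrane group had smaller ratios and were not called by edgeR. Tspan2, a tetraspanin of oligodendrocytes, had a level of 62.2 TPM in replicate 1 against 39.2 TPM in replicate 2 (log2 ratio -0.67 ± 0.04, edgeR adjusted p = 0.103). Gjb1, connexin 32, had only 117 and 68 counts at 3.67 and 2.23 TPM (log2 ratio -0.66 ± 0.22, edgeR adjusted p = 0.42). Pllp, plasmolipin, was at 30.4 and 21.3 TPM (log2 ratio -0.56 ± 0.07, edgeR adjusted p = 0.395), and 54.2% of its exonic bases lie opposite the gene Gm45767, which had 35 and 37 counts. The smallest ratio was that of Cd9, a tetraspanin also made by endothelial and other cells, at 34.6 and 29.2 TPM (log2 ratio -0.30 ± 0.07, exact binomial adjusted p = 0.000587, edgeR adjusted p = 1). Opalin lay below Cd9 by 0.74 on the log2 scale (counting SE 0.19). This pair takes in the smallest ratio of the group, so its SE is no test. The ratios of the group ran from -1.10 to -0.30.

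The DNA upstream of the genes was searched because Sox10 and Myrf, both in the gene set, are known to bind promoters and enhancers of myelin genes. RefSeq (build GRCm38.p6) gave 46 promoters for 33 of the 43 genes, and the 250 bases before each start were searched on both strands for a SOX core (ACAAAG or ACAATG) and a MYRF core (CTGGCAC or CTGGTAC). The SOX core can begin within the last bases of the MYRF core, which is not so in the sequences below. Those sequences were chosen because each holds a MYRF core, not by the ratio of the gene. Of the 17 myelination factor, myelin membrane and lipid enzyme genes with a promoter, only these 3 held one. The first is chr11:100574689-100574903 on the + strand before Cnp, the next chr7:30914874-30915113 on the - strand before Mag, and the last chr17:37023399-37023648 on the - strand before Mog. Each runs 5′ to 3′ along its gene, bases in an annotated exon are left out, and capitals mark the core matches, which read as the reverse complement where the match is on the other strand.
Cnp: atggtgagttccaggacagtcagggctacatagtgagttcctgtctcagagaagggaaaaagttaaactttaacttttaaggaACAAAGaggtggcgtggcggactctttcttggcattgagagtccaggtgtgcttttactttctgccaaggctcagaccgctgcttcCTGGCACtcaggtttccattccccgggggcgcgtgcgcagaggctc
Mag: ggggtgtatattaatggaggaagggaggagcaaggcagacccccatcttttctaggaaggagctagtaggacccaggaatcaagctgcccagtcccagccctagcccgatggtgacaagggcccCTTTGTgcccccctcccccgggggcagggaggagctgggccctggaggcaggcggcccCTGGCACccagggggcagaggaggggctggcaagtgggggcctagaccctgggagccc
Mog: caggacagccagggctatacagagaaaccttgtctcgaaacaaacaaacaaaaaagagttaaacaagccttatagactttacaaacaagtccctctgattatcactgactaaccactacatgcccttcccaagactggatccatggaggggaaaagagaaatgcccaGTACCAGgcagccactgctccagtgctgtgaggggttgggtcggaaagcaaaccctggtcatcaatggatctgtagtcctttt
The MYRF core began 81 bases before the RefSeq start of Cnp, 68 before the shown start of Mag and 83 before that of Mog. Of the 46 promoters of the gene set 6 held a MYRF core (13%), those of Cnp, Gamt, Lpar1, Mag (at 2 starts) and Mog, against 5.93% of all 32851 promoters. A SOX core was held by 18 of the 46 (39.1%), against 25.2% of all. These are matches of letters in a short window, and no match says nothing about binding elsewhere.

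Among the enzymes of myelin lipids, the genes that build the lipids were lower in replicate 2 and the gene that degrades them was not called. Ugt8a, which makes galactocerebroside, the main glycolipid of myelin, had a level of 43.5 TPM in replicate 1 against 25.4 TPM in replicate 2 (log2 ratio -0.83 ± 0.04, edgeR adjusted p = 0.00953). Fa2h, which hydroxylates the fatty acids of such lipids, was at 17.4 and 9.47 TPM (log2 ratio -0.93 ± 0.08, edgeR adjusted p = 0.00391). Gal3st1, which turns galactocerebroside into sulfatide, was at 12.4 and 8.76 TPM (log2 ratio -0.55 ± 0.11, exact binomial adjusted p = 1.39e-06, edgeR adjusted p = 0.484).

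Galc, the lysosomal enzyme that breaks galactocerebroside down in many cell types (chromosome 12, 98202294 to 98259459), had a level of 7.65 TPM in replicate 1 against 8.99 TPM in replicate 2. Its log2 ratio of 0.15 ± 0.08 was not called (exact binomial adjusted p = 0.165), but it was called higher under scaling by total counts (0.21) and by spike-ins (0.20). The log2 ratio of Ugt8a lay below that of Galc by 0.99 (counting SE 0.09) and that of Fa2h by 1.08 (counting SE 0.12). Galc had the highest ratio of the 43 genes, so these SEs are no test. On the TPM scale Ugt8a over Galc was 5.69 in replicate 1 and 2.83 in replicate 2. Aspa, which releases acetate from N-acetylaspartate, was at 2.69 and 1.91 TPM with 76 and 57 counts and was not called (log2 ratio -0.33 ± 0.25, exact binomial adjusted p = 0.298).

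The metabolic, secreted and receptor genes held the largest and some of the smallest ratios of all 43. Trf, the iron carrier transferrin, which oligodendrocytes make in quantity, had a level of 56.7 TPM in replicate 1 against 26.8 TPM in replicate 2, 2.19-fold lower in normalised counts (log2 ratio -1.13 ± 0.06, edgeR adjusted p = 4.63e-05). Of its exonic bases 63.5% are shared on the same strand with the annotated gene Gm20425, which had 215 and 260 counts, so the division of reads between them is uncertain. The summed counts of both were 2118 and 1121, a log2 ratio of -0.91. That is smaller in size than the ratio of Mal (-1.10), so the rank of Trf as the largest of the 43 depends on this division. Gsn, the actin-severing protein gelsolin, was at 63.8 and 38.5 TPM (log2 ratio -0.86 ± 0.04, edgeR adjusted p = 0.0065). Gamt, the last enzyme of creatine synthesis, was at 21.1 and 14.0 TPM (log2 ratio -0.59 ± 0.12, edgeR adjusted p = 0.395).

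Of the rest of this group, 5 were called lower at less than 1.5-fold. Plekhh1, a pleckstrin-homology protein, had a level of 5.03 TPM in replicate 1 against 3.32 TPM in replicate 2 (log2 ratio -0.57 ± 0.09), and Lpar1, a receptor for lysophosphatidic acid, was at 9.08 and 7.79 TPM (log2 ratio -0.41 ± 0.09). Sirt2, a deacetylase that is abundant in myelin, was at 131 and 109 TPM (log2 ratio -0.35 ± 0.03). Gpr37, a receptor that restrains differentiation, was at 7.86 and 6.44 TPM (log2 ratio -0.32 ± 0.08). Enpp2, autotaxin, the secreted enzyme that makes lysophosphatidic acid, was at 134 and 108 TPM (log2 ratio -0.27 ± 0.03). Exact binomial adjusted p-values of these 5 ran from 9.1e-28 for Sirt2 to 0.000371 for Gpr37, and none passed the edgeR exact test. With trends on length, GC content and mean expression removed, Plekhh1 reached 1.5-fold (log2 ratio -0.59) and Gamt fell short of it (-0.51).

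Car2 and Qdpr were the exceptions in this group. Car2, the carbonic anhydrase of the cytosol, had a level of 33.8 TPM in replicate 1 against 36.1 TPM in replicate 2 (log2 ratio -0.06 ± 0.06, exact binomial adjusted p = 0.498). Qdpr, which regenerates tetrahydrobiopterin, was at 42.9 and 41.6 TPM (log2 ratio -0.14 ± 0.06, exact binomial adjusted p = 0.101). The log2 ratio of Gsn lay below that of Car2 by 0.80 (counting SE 0.07) and that of Trf below that of Enpp2 by 0.86 (counting SE 0.06). The value for Trf leaves aside the uncertain division of reads with Gm20425, and with both summed the log2 ratio was -0.91. Car2 had the smallest and Trf, as counted, the largest ratio of this group, so these SEs are no test. The ratios of the group ran from -1.13 to -0.06.

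Ratios between stages within a library do not depend on how the libraries are scaled. The summed TPM of the myelin membrane genes was 14.0 times that of the precursor genes in replicate 1 and 8.41 times in replicate 2. For the lipid and acetate enzymes the same quotient was 1.31 and 0.881, and for the myelination factors 0.235 and 0.158. It was 7.92 and 6.32 for the metabolic, secreted and receptor genes. The lineage factors (1.69 and 1.54) and the committed cell genes (1.74 and 1.56) gave quotients that moved less between the libraries. Of single pairs on the TPM scale, Mobp over Pdgfra was 6.56 in replicate 1 and 3.74 in replicate 2, Mag over Gpr17 3.92 and 2.27, and Bcas1 over Gpr17 1.01 and 0.818.

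Other genes of the lineage were read from 5 lists outside the 43. For comparison with the calls in each list, 11.4% of all genes tested were called lower and 8.88% higher. At 1.5-fold or more these shares were 1.05% and 2.2%. Of 12 other precursor genes, the exact binomial test called 2 lower (Tnr and Susd5) and 2 higher (Ptprz1 and Pcdh15), none at 1.5-fold, with a median log2 ratio of 0.09. Of 7 other genes of newly formed oligodendrocytes, 5 were called lower and 0 higher, none at 1.5-fold, with a median of -0.15. Of 22 other genes of mature oligodendrocytes 21 had enough counts to be tested, 16 were called lower and 0 higher, and the median was -0.45. Those lower by at least 1.5-fold in that list included Tmem88b (9.27 and 5.47 TPM, log2 ratio -0.80 ± 0.09), Ppp1r14a (6.37 and 3.78 TPM, log2 ratio -0.69 ± 0.23), the protease Adamts4 (12.4 and 8.04 TPM, log2 ratio -0.67 ± 0.07) and the connexin Gjc3 (9.14 and 6.95 TPM, log2 ratio -0.60 ± 0.08).

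Genes that hold back differentiation and the growth factor system of the lineage did not move in 1 direction. Of 7 inhibitors of differentiation, Hes1 (log2 ratio -0.45 ± 0.14) and Lingo1 (-0.09 ± 0.02) were lower by the exact binomial test and Hes5 higher (0.40 ± 0.10), and the median was -0.06. Of 11 growth factors and receptors 3 were called lower and 3 higher, with a median of -0.02. Erbb3, a neuregulin receptor of the lineage, was the 1 with a difference of at least 1.5-fold, with 3.51 TPM in replicate 1 against 2.34 TPM in replicate 2 (log2 ratio -0.62 ± 0.11, exact binomial adjusted p = 5.44e-08). Pdgfa, the ligand of Pdgfra, was at 22.0 and 27.4 TPM (log2 ratio 0.18 ± 0.07, exact binomial adjusted p = 0.036).

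Markers of neighbouring tissue also differed between the libraries. By the exact binomial test all 9 striatal markers were lower in replicate 2, with a median log2 ratio of -0.61, and their summed level was 352 TPM in replicate 1 and 224 TPM in replicate 2. Of 8 choroid plexus markers 7 were called higher, with a median of 0.93, and their summed level was 12.4 and 139 TPM, most of it Ttr. None of the markers of either list was at 0 counts. The choroid plexus list was low, with a median of 0.36 TPM in replicate 1 and 1.03 TPM in replicate 2. Some of its called markers passed the filter of 10 counts only through replicate 2, where they were high, so their calls give no separate evidence. Enpp2, Trf and Car2 are also made by the choroid plexus epithelium. Of 7 meningeal fibroblast markers 4 were called higher and 0 lower (median 0.35, summed 141 and 171 TPM). Medians lay between -0.16 and -0.03 for astrocyte, excitatory neuron, microglia, and endothelial and mural markers, none of which held a gene called at 1.5-fold. Without the fold limit, 5 of 6 excitatory neuron, 3 of 6 microglia and 4 of 8 astrocyte markers were called lower. Called higher were 2 astrocyte markers and 1 of 7 endothelial and mural markers. A high share of binomial calls was therefore not particular to the lineage genes. The part of these marker differences in the ratios of the lineage genes was not tested.

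**Figure D3:**
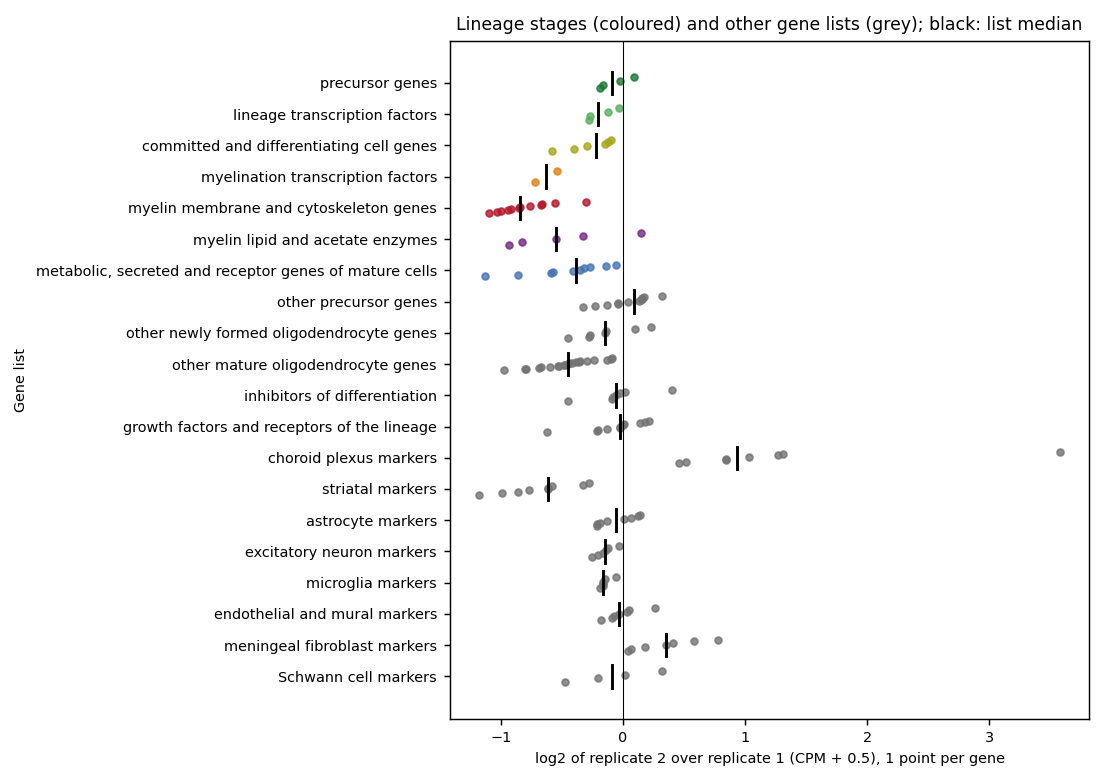
Log2 ratio of replicate 2 over replicate 1 for each gene (points) of the 7 lineage groups (coloured) and of other lists (grey), with list medians as black bars. The myelin membrane median of -0.84 and the striatal median of -0.61 lie to the left with the other mature oligodendrocyte genes at -0.45, the choroid plexus median of 0.93 and the meningeal fibroblast median of 0.35 lie to the right, and the remaining grey lists have medians between -0.16 and 0.09.

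The annotation gives 204 transcripts for the 43 genes, and 7 of the genes have 1. Shares of a transcript in its gene's TPM are estimates, because transcripts of a gene share most of their reads, and they were read from both deposited transcript tables. The leading transcript was the same in both libraries for 40 of the 43 genes in the first table and for 40 in the second, and the same in both tables and libraries for 30. Of 24 transcripts of myelin membrane genes with 50 counts or more in a library, 23 had a lower normalised count in replicate 2, the exception being Tspan2-203 (46.5 and 52.9 counts). Of 15 such transcripts of precursor genes and lineage factors, 11 had a lower count. All 12 myelin membrane genes were themselves lower, their transcripts share reads, and the limit of 50 counts could be met through replicate 1 alone. The count of lower transcripts therefore gives no separate evidence on how the difference was spread over them.

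Known splice forms of Mag could be followed. Mag-203, which codes for the 582-residue form with the short cytoplasmic tail, held 45.2% of the gene's TPM in replicate 1 and 48.5% in replicate 2. Mag-207, which codes for the 627-residue form with the long tail, held 27.1% and 25.0%. The second table gave 55.6% and 55.2% for Mag-203 and 38.1% and 38.5% for Mag-207. The short form stood above the long form in both libraries and both tables, and the change between libraries was of opposite sign in the tables.

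Mobp was spread over more forms. Mobp-204, annotated as a target of nonsense-mediated decay, held 43.7% of TPM in replicate 1 and 44.0% in replicate 2, and 39.4% and 42.9% in the second table. Mobp-201, which codes for the longest form of 170 residues, held 8.24% and 11.9%, with 8.36% and 11.9% in the second table. Mobp-206, a short transcript of 435 bases that codes for 81 residues, held 22.6% and 14.0%, and 16.9% and 2.26% in the second table. Mobp-206 therefore had a lower share in replicate 2 in both tables, from 330 and 102 counts in the first.

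Shares also differed between the libraries in genes of earlier stages. Pdgfra-201, the main coding transcript, held 59.7% in replicate 1 and 68.2% in replicate 2, with 2552 and 2554 counts, and Pdgfra-207, annotated as a target of non-stop decay, held 23.3% and 16.1%. In the second table these shares were 44.9% and 51.4%, and 16.4% and 9.97%. Lhfpl3-201, which codes for 80 residues, held 23.1% and 37.8%, and 25.8% and 34.3% in the second table, against Lhfpl3-202 with 228 residues. Neu4-202, which codes for 501 residues, held 64.2% and 51.7% in the first table and 72.0% and 64.5% in the second. Myrf-201, which codes for 1138 residues, held 77.3% and 70.8%, and 65.5% and 59.0% in the second table. Each of these shares moved in the same direction in both tables. They are given without a test.

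In other genes the tables gave different answers. Ugt8a-201 held 90.6% and 88.6% of TPM in the first table and 28.3% and 30.0% in the second, where Ugt8a-203 led, although both code for 541 residues. Cnp-201, which codes for 420 residues, held 57.6% and 59.5% in the first table, and the noncoding Cnp-204 held 59.3% and 57.6% in the second. Opalin-201 led in the first table with 76.4% and 76.2%, and the retained-intron transcript Opalin-202 in the second with 51.4% and 55.6%. Gsn-201, the transcript of the 780-residue form, held 76.6% in replicate 1 and 48.8% in replicate 2, and 35.8% and 27.2% in the second table, with Gsn-205, which codes for 731 residues, taking most of the difference. Sox10-201 and Sox10-203 changed places between the libraries in the first table, while Sox10-203 held 90.3% and 85.2% in the second.

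**Figure D4:**
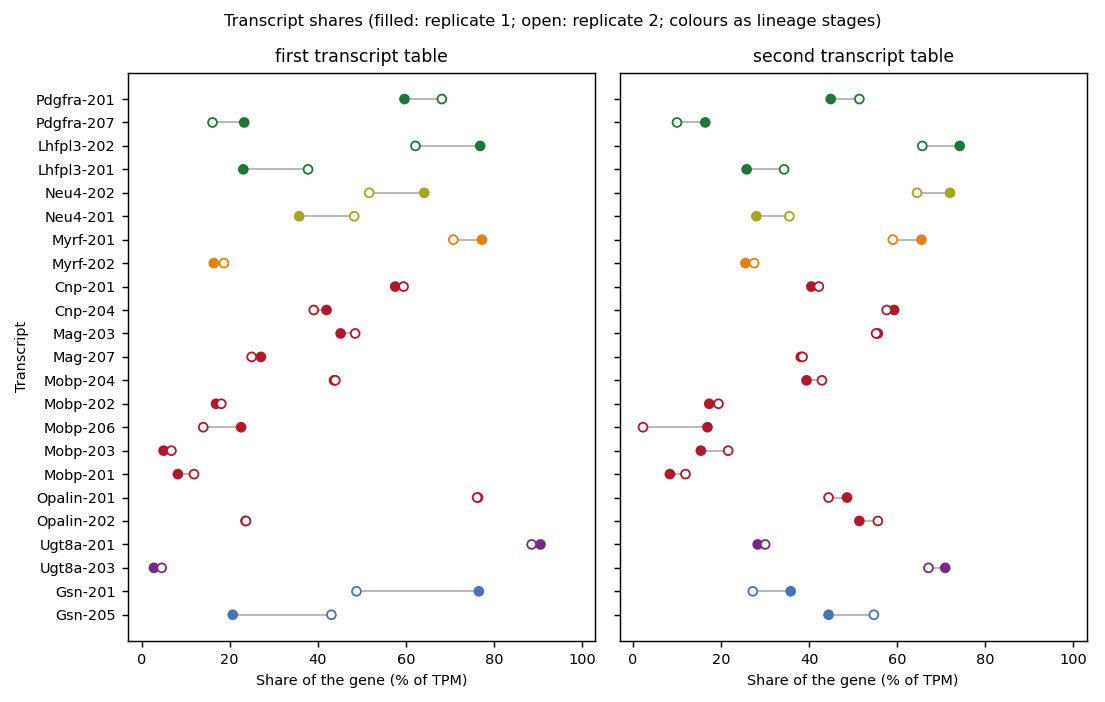
Share of the gene's TPM held by selected transcripts in replicate 1 (filled) and replicate 2 (open), in the first (left) and the second transcript table (right), coloured by lineage stage. Mobp-206 moves to the left in both tables (22.6% to 14.0% in the first), while Ugt8a-201 lies near 90.6% in the first table and 28.3% in the second.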

How the data were processed

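Total RNA-seq of 2 libraries was compared as 1 group, numbered as replicates 1 and 2 in the labels. The text files that the authors deposited beside the tables name assembly mm10 and annotation GENCODE M21. They derive a gene table and a transcript table of each library from an alignment to the transcriptome, and another transcript table straight from the reads. The names of the aligner and of the quantification tools were not given in the sources used here. As deposited by the authors, the expected counts are estimated reads per gene or transcript without normalisation, per the file headers. TPM values were deposited by the authors, scaled over all rows with the spike-ins. Transcript shares are also deposited by the authors in percent, and those printed were recomputed from TPM in both tables. The posterior SD of counts, deposited by the authors in reads, entered no test. Whether the counting used strand is not stated, and exons of 17 of the 43 genes overlap genes of the opposite strand over 0.834% to 54.2% of their bases.

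The 43 genes, their 7 groups, the other lists and the motifs were chosen with earlier results of these data known. Every one of the 43 is named, and of other lists those called at 1.5-fold or more, up to 6 per list, apart from items that are not reported here. Those of the neighbouring-tissue lists are given as sums, and Tnr, Susd5, Ptprz1, Pcdh15, Hes1, Hes5, Lingo1 and Pdgfa were named after their values were seen. Rows that name no gene held 5.00 and 4.84 counts (1.49e-05% and 1.51e-05%) and were left out. Expected counts were rounded, and each of 18887 genes that reached 10 counts in a library entered a two-sided exact binomial test (scipy 1.17.1). The expected share came from TMM scaling in edgeR 4.0.16 (32.7 × 1e6 counts for each library), and p-values were adjusted by Benjamini-Hochberg over all genes tested. A quasi-likelihood fit has no residual degrees of freedom here, so an edgeR exact test with an assumed dispersion of 0.01 was the alternative. The exact binomial test was checked on simulated counts that held counting error alone, so that check does not bear on spread between libraries. Adding 0.5 to CPM before taking log2 shrinks the ratios of low genes, and counting SEs leave out any spread between animals. Nothing in the labels gives a batch, and the labels number the libraries as biological replicates but give both the same donor entry, and nothing says that they come from separate mice, so p-values measure only the difference between these libraries, which may be technical. Other alternatives were 3 scalings, the filter, the second table, CPM + 0.1 and the removal of trends on length, GC content and expression (R 4.3.3, DESeq2 1.42.0, Python 3.11.15, pandas 2.3.3).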

Additional observations from a re-analysis of the deposited data

How the results depend on the processing

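The exact binomial test called 32 of the 43 genes lower, against 12 in the edgeR exact test with an assumed dispersion of 0.01, where 20 genes lost their call. This is the limit of the comparison: with 2 libraries of 1 group the spread between mice cannot be estimated, and the call of every gene outside those 12 rests on counting error alone. The edgeR calls of the 12 rest on counting error and a dispersion that was assumed, not estimated from the data. With scaling by total counts the myelin membrane median was -0.79 in place of -0.84, and with trends on length, GC content and mean expression removed it was -0.75. The log2 ratio of C1ql1 turned to 0.03 with total counts, 0.03 with spike-ins and 0.05 with trends removed, and that of Olig2 to 0.03, 0.02 and 0.02. Cspg4 and Gpr17 lost and Galc gained a call under total counts and under spike-ins. Median-of-ratios scaling, no filter, a filter of 50 counts, the second table and CPM + 0.1 kept the direction and the call of all 43 genes.

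Levels depended on the table. In the second table the stage medians were 15.1 TPM for precursor genes, 23.4 for lineage factors, 13.4 for committed cell genes, 9.44 for myelination factors, 54.8 for myelin membrane genes, 15.1 for lipid enzymes and 55.2 for metabolic, secreted and receptor genes. With a single library, these medians ran from 11.4 to 11.8, 16.4 to 17.3, 7.03 to 8.84, 4.91 to 7.50, 25.6 to 44.2, 8.99 to 12.4 and 31.4 to 38.4 TPM in the gene tables. The cause was not tested. Leaving out a library gives no ratio, since the comparison needs both. No paired analysis was possible because the libraries form 1 group.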
